A study of Mus musculus with 10 samples.

Results

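The nuclear-encoded subunits of the oxidative phosphorylation system were examined in mouse retina after delivery of the same reporter by a pair of viral capsids. The members were the protein coding genes of the count table whose symbols begin with Nduf followed by A, B, C, S or V and a digit (complex I), are Sdha to Sdhd (complex II), begin with Uqcr or are Cyc1 (complex III), begin with Cox4 to Cox8 (complex IV), or begin with Atp5 (complex V), and whose mean level over all libraries was at least 0.5 CPM, the unit in which counts are scaled to the size of their library. Of 57010 genes in the table, 98 had such a symbol and 86 of those were protein coding. The level left 80 members, and all 80 were among the 15539 genes that passed the filter on low counts and were tested. Complex I had 37 members, complex II 4, complex III 9, complex IV 13 and complex V 17.

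These complexes sit in the inner mitochondrial membrane. Complexes I and II pass electrons from NADH and succinate to ubiquinone, complex III passes them to cytochrome c and complex IV to oxygen. Complexes I, III and IV pump protons, and complex V, the ATP synthase, uses the gradient to make ATP. Most subunits are encoded in the nucleus and imported, whereas a few hydrophobic ones are made from mitochondrial DNA, so each complex other than complex II is assembled from the products of both genomes. The retina is known for a high use of oxygen and ATP, with dense mitochondria in the inner segments of photoreceptors.

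Bulk RNA sequencing had been done on retinas of 10 mice aged 6 to 8 weeks at injection. In each group, 5 mice were injected into the vitreous with a recombinant adeno-associated virus (AAV) that carries green fluorescent protein (GFP): AAV2-GFP, in the capsid of serotype 2, or AAV206-GFP, in the capsid named AAV206, which the title of the study presents as directed at the retinal pigment epithelium. Retinas were taken on day 14. All animals had received a vector and the same reporter, so the values compare the vectors with each other and not with an uninjected eye. The promoter in front of GFP and the strain and sex of the mice are not given in the sources used here.

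Total counts were 10989843 to 12752604 per library, at which 3 counts, the floor used here, correspond to 0.232 to 0.274 CPM. This floor covers counting error only. Rod markers summed to 54542 to 58203 CPM with AAV2-GFP and to 58120 to 64179 CPM with AAV206-GFP, and of 9 tested, 2 rose and 1 fell. Some libraries stood apart from the others of their group. AAV2-GFP replicates 1 and 4 had the highest sums of interferon and antigen presentation genes, at 1788 and 889 CPM against 172 to 306 in the other 3 libraries of that group. AAV2-GFP replicate 3, the deepest library, and AAV206-GFP replicate 4 stood apart for many members and for short protein coding genes in general, as described below.

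The members lay mostly lower with AAV206-GFP, by small amounts, but the share that passed the test was near the share of all genes. With edgeR's quasi-likelihood test and an adjusted p under 0.05, 8 of 80 members (10%) were called, against 11.2% of all genes tested. Of the 8, 7 fell and 1 rose with AAV206-GFP, where 5.3% of all genes fell and 5.95% rose. The 7 that fell were Ndufa1, Ndufa12 and Ndufb2 of complex I, Uqcrh of complex III, Cox6b1 and Cox8a of complex IV and Atp5e of complex V. Ndufs1 of complex I rose. The members' log2 fold change, AAV206-GFP over AAV2-GFP, was under 0 for 73 of 80, where it was under 0 for 51.8% of all genes. Its median was -0.21 over the members and -0.0095 over all genes, and it ran from -0.50 to 0.21 among the members. At an unadjusted p under 0.05 there were 34 members (42.5%), 33 of them lower, against 28% of all genes. In bulk tissue, fewer cells of a type and less RNA per cell cannot be told apart. Without AAV2-GFP replicate 3, or without AAV206-GFP replicate 4, no member was called with edgeR, and the lean to lower values remained in smaller form: the median was -0.097 with 61 of 80 members under 0 in the first case, where 51.2% of all genes were, and -0.18 with 71 of 80 in the second, where 52.4% were.

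**Figure D1:**
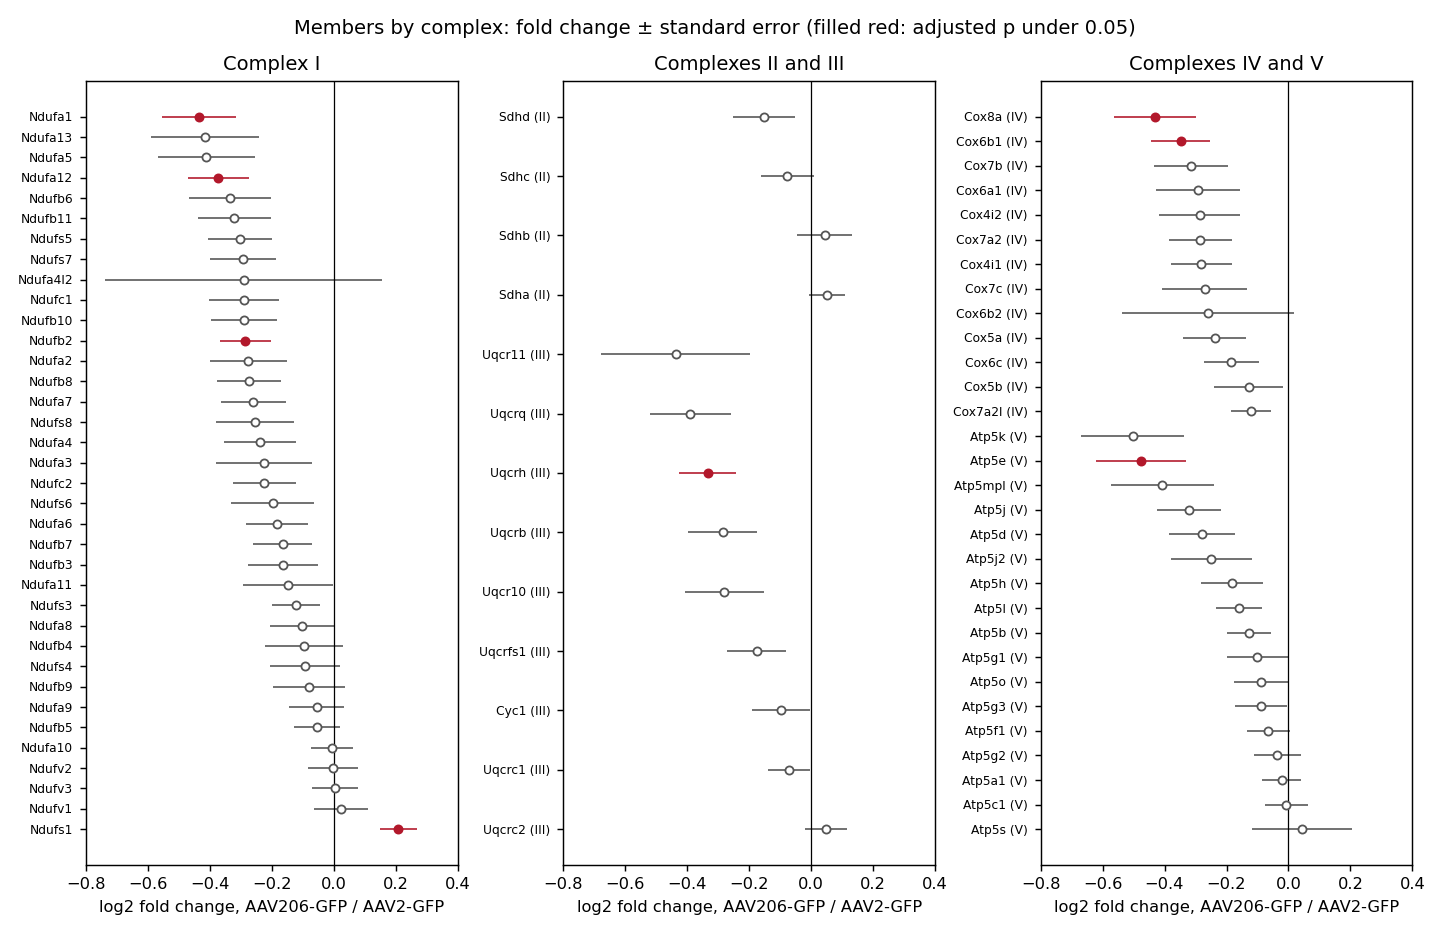
Log2 fold change of the members shown, between AAV206-GFP and AAV2-GFP (x axis, points with standard error from edgeR, 5 libraries a group), in panels for complex I, complexes II and III, and complexes IV and V. Most points lie left of 0, and the 8 members with an adjusted p under 0.05 are filled in red, with Ndufs1 the only one of these to the right.

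Within complex I, 34 of 37 members had a log2 fold change under 0, with a median of -0.22 and a range from -0.44 to 0.21. The complex is built from a module that oxidises NADH (N), a module that reduces ubiquinone (Q) and a proton-pumping membrane arm. Of all genes, 5.3% fell and 5.95% rose. Of the 10 members of the N module, 1 fell and 1 rose, with a median of -0.14. None of the 6 members of the Q module was called with edgeR (2 at an unadjusted p under 0.05), DESeq2 or limma-voom, with a median of -0.19. In the membrane arm, 2 of 19 members fell, all 19 had a log2 fold change under 0 and the median was -0.23. The 7 core subunits, which hold the redox centres, had a median of -0.079, whereas the other 30 members counted with complex I had a median of -0.23. These are accessory subunits, which surround the core and take part in its assembly and stability, with Ndufa4 and Ndufa4l2 counted among them by symbol. The median transcript length was 1623 bases for the core subunits and 681.5 bases for the other 30. The part of length in this difference was not tested.

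Ndufs1 encodes the large iron-sulfur subunit of the N module and lies at chr1:63143596-63176833 on the minus strand (GRCm38). Its level was 87.8, 84.6, 92.8, 92.5 and 91.9 CPM in AAV2-GFP replicates 1 to 5 and 94.2, 103, 108, 112 and 102 CPM in AAV206-GFP replicates 1 to 5. Every AAV206-GFP library was above every AAV2-GFP library. The group means were 89.9 ± 3.60 and 104 ± 6.77 CPM (SD, n = 5 each). This was a rise of 0.21 on the log2 scale (SE 0.06, edgeR adjusted p = 0.0376). It was the only member called higher, and the only one of the 80 whose AAV206-GFP libraries were all higher, a pattern that 5.41% of all genes showed. AAV206-GFP replicate 4, the library in which 39 of the 80 members were lowest, had its highest value. The deposited counts of Ndufs1 carried decimals in all 10 libraries, which marks reads divided between genes. Its exons also overlap those of Eef1b2 and Ino80dos on the opposite strand. Its level is uncertain for both reasons. The call was kept in 2 of 10 fits with 1 library left out, without AAV206-GFP replicate 1 or 5. In the other 8 the log2 fold change was 0.18 to 0.22 and the edgeR adjusted p lay between 0.0502, without AAV2-GFP replicate 3, and 0.0916, without AAV206-GFP replicate 4.

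Ndufa12, an accessory subunit of the N module, lies at chr10:94198720-94221443 on the plus strand. It stood at 36.5, 31.4, 46.2, 36.6 and 40.4 CPM in AAV2-GFP retinas and at 28.4, 30.6, 31.4, 25.8 and 31.5 CPM in AAV206-GFP retinas. The groups overlapped only through AAV2-GFP replicate 2, whose level was just under that of AAV206-GFP replicate 5. Means were 38.2 ± 5.46 and 29.6 ± 2.42 CPM (SD, n = 5 each), and Ndufa12 fell by 0.37 on the log2 scale (SE 0.10, edgeR adjusted p = 0.0235). Of the called members it kept its call in the most fits with 1 library left out, 7 of 10. The edgeR adjusted p was 0.0552 without AAV2-GFP replicate 3, 0.0536 without AAV2-GFP replicate 5 and 0.0616 without AAV206-GFP replicate 4. Its counts carried decimals in 6 libraries and are uncertain to that extent.

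Among the subunits of the membrane arm, Ndufa1 and Ndufb2 fell. Ndufa1 encodes a very short accessory protein that spans the membrane and is needed for the arm to assemble, and the gene lies on the X chromosome at chrX:37187588-37191163, on the minus strand. Its levels were 17.3, 17.2, 21.7, 18.8 and 15.1 CPM in AAV2-GFP retinas and 15.0, 13.9, 12.7, 10.9 and 14.2 CPM in AAV206-GFP retinas. All AAV206-GFP libraries were lower than all AAV2-GFP libraries, by a narrow margin between AAV206-GFP replicate 1 and AAV2-GFP replicate 5. Means were 18.0 ± 2.42 and 13.3 ± 1.57 CPM (SD, n = 5 each), and the gene fell by 0.44 on the log2 scale (SE 0.12, edgeR adjusted p = 0.0290). The edgeR adjusted p was 0.0738 without AAV2-GFP replicate 3, 0.0698 without AAV2-GFP replicate 4, and 0.0543, 0.0674 and 0.0694 without AAV206-GFP replicate 2, 3 or 4. Ndufa1 had no decimals and no exon overlap with another gene.

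Ndufb2 encodes another small accessory subunit of the membrane arm, at chr6:39592574-39603382 on the plus strand. Its levels were 44.8, 45.9, 55.8, 45.7 and 43.2 CPM in AAV2-GFP retinas and 36.4, 43.1, 40.3, 35.8 and 37.8 CPM in AAV206-GFP retinas. The groups did not overlap, although AAV206-GFP replicate 2 came close to AAV2-GFP replicate 5, and AAV2-GFP replicate 3 lay far above the other 4 libraries of its group. Means were 47.1 ± 5.00 and 38.7 ± 2.99 CPM (SD, n = 5 each), and Ndufb2 fell by 0.29 on the log2 scale (SE 0.08, edgeR adjusted p = 0.0343). With 1 library left out the call was kept in 4 of 10 fits. The edgeR adjusted p was 0.0782 and 0.0634 without AAV2-GFP replicate 3 or 4, and 0.0707, 0.0551, 0.0831 and 0.0585 without AAV206-GFP replicate 1, 3, 4 or 5. Exons of Braf and Gm16272 on the opposite strand and of Gm42420 on the same strand overlap Ndufb2, and the strand setting of the counting is not given in the sources used here.

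The other members of complex I did not pass the test. Ndufa4, which carries a complex I symbol but is regarded as a subunit of complex IV, was counted with complex I by its symbol, as was its paralog Ndufa4l2. Ndufb1-ps, the membrane-arm gene annotated as a long noncoding RNA in the release used, was no member, and Ndufab1, the acyl carrier protein, does not match the symbol pattern.

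Complex II, succinate dehydrogenase, links the tricarboxylic acid (TCA) cycle to the chain and is the complex with no mitochondrially encoded subunit. None of its 4 members was called with edgeR (0 at an unadjusted p under 0.05), DESeq2 or limma-voom, and 2 had a log2 fold change under 0, with a median of -0.017. Sdha, the flavoprotein that oxidises succinate, stood at 314, 317, 350, 333 and 323 CPM in AAV2-GFP retinas and at 332, 341, 353, 310 and 361 CPM in AAV206-GFP retinas. These ranges overlapped, and the log2 fold change was 0.051 (SE 0.06, edgeR adjusted p = 0.602). Sdhd, a membrane anchor, had means of 37.6 ± 4.90 and 33.8 ± 4.04 CPM (SD, n = 5 each), with a log2 fold change of -0.15 (SE 0.10, edgeR adjusted p = 0.340). The summed level of the complex was 461 ± 27.6 CPM (AAV2-GFP) and 467 ± 24.9 CPM (AAV206-GFP; SD, n = 5 each), a difference within the spread of either group.

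In complex III, the cytochrome bc1 complex, 1 of 9 members fell, where 5.3% of all genes did. A log2 fold change under 0 was found for 8, with a median of -0.28 over the 9. The large core proteins and the redox subunits (Uqcrc1, Uqcrc2, Cyc1 and Uqcrfs1) had a median of -0.084 and no call with edgeR (0 at an unadjusted p under 0.05), DESeq2 or limma-voom. The 5 small subunits that surround them (Uqcrb, Uqcrh, Uqcrq, Uqcr10 and Uqcr11) all had log2 fold changes under 0, from -0.44 to -0.28, with a median of -0.33, and Uqcrh was the one called. The median transcript length was 445 bases for the small subunits and 1586.5 bases for the core and redox subunits. The part of length in this difference was not tested. Uqcrh, the hinge protein that helps cytochrome c dock, lies at chr4:116066965-116075071 on the minus strand. It stood at 57.3, 54.3, 76.8, 64.7 and 52.2 CPM in AAV2-GFP retinas and at 45.8, 48.9, 50.9, 48.5 and 48.3 CPM in AAV206-GFP retinas. All AAV206-GFP libraries were lower than all AAV2-GFP libraries, and they lay close together while the AAV2-GFP libraries were spread out. Means were 61.1 ± 9.99 and 48.5 ± 1.83 CPM (SD, n = 5 each), and Uqcrh fell by 0.33 on the log2 scale (SE 0.09, edgeR adjusted p = 0.0303). The edgeR adjusted p was 0.0559 and 0.0791 without AAV2-GFP replicate 3 or 4, and 0.0650, 0.0644 and 0.0618 without AAV206-GFP replicate 1, 2 or 4. With a trend on the length of the longest form removed, the log2 fold change was -0.18 (edgeR adjusted p = 0.109). For Uqcrc1, the core protein 1 of the complex, the means were 163 ± 16.4 and 155 ± 2.47 CPM (SD, n = 5 each), with a log2 fold change of -0.072 (SE 0.07, edgeR adjusted p = 0.518).

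Complex IV, cytochrome c oxidase, was the complex in which all members leaned the same way: all 13 had a log2 fold change under 0, from -0.43 to -0.12, with a median of -0.28. Its members were short, with a median transcript length of 645 bases. Over all complexes, the 54 members of at most 1000 bases were also all under 0. Its catalytic core is encoded by mitochondrial DNA, and the nuclear members are mostly small subunits around that core. Of the 13, Cox6b1 and Cox8a fell, where 5.3% of all genes did. The summed level of the complex was 799 ± 123 CPM after AAV2-GFP against 668 ± 53.5 CPM after AAV206-GFP (SD, n = 5 each). Without AAV2-GFP replicate 3, whose sum was 1007 CPM, the AAV2-GFP mean was 747 CPM. AAV206-GFP replicate 4 had the lowest sum, 582 CPM, and AAV206-GFP replicate 5, at 727 CPM, overlapped the AAV2-GFP libraries.

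Cox6b1 faces the intermembrane space and joins the partners of the complex IV dimer. The gene lies at chr7:30616861-30626151 on the minus strand. Its levels were 44.6, 39.2, 56.2, 44.3 and 40.8 CPM in AAV2-GFP retinas and 36.7, 36.4, 36.8, 30.7 and 36.4 CPM in AAV206-GFP retinas. The groups did not overlap, and 4 of the 5 AAV206-GFP libraries were nearly equal, with replicate 4 below them. Means were 45.0 ± 6.68 and 35.4 ± 2.64 CPM (SD, n = 5 each), and Cox6b1 fell by 0.35 on the log2 scale (SE 0.09, edgeR adjusted p = 0.0282). It kept its call in 6 of 10 fits with 1 library left out. The edgeR adjusted p was 0.0566 and 0.0563 without AAV2-GFP replicate 3 or 4, and 0.0554 and 0.0729 without AAV206-GFP replicate 2 or 4.

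Cox8a, one of the smallest nuclear subunits of the complex, lies at chr19:7215153-7217616 on the minus strand. It stood at 82.8, 82.1, 134, 95.9 and 85.5 CPM in AAV2-GFP retinas and at 71.3, 69.7, 74.9, 54.3 and 86.0 CPM in AAV206-GFP retinas. AAV2-GFP replicate 3 was far above and AAV206-GFP replicate 4 far below the rest, and AAV206-GFP replicate 5 overlapped the AAV2-GFP libraries. Means were 96.0 ± 21.8 and 71.2 ± 11.4 CPM (SD, n = 5 each), and Cox8a fell by 0.43 on the log2 scale (SE 0.13, edgeR adjusted p = 0.0474). The call was near the threshold and was kept in 3 of 10 fits with 1 library left out, without AAV2-GFP replicate 1 or 2 or AAV206-GFP replicate 5. In the other 7 the edgeR adjusted p was from 0.0542, without AAV2-GFP replicate 5, to 0.115, without AAV206-GFP replicate 4. Without AAV2-GFP replicate 3 the log2 fold change was -0.28.

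Cox4i1 encodes subunit 4, which takes part in the regulation of the complex by ATP. It stood at 145, 158, 210, 180 and 161 CPM in AAV2-GFP retinas and at 148, 141, 151, 114 and 150 CPM in AAV206-GFP retinas. The groups overlapped through AAV2-GFP replicate 1, and the log2 fold change of -0.28 did not pass the test (SE 0.10, edgeR adjusted p = 0.0737). With AAV2-GFP replicate 1 left out it was -0.33 with an edgeR adjusted p of 0.0302, and the adjusted p was 0.0485 in edgeR without a filter on low counts and 0.0357 in DESeq2. It was -0.20 (edgeR adjusted p = 0.171) without AAV2-GFP replicate 3, -0.22 (edgeR adjusted p = 0.167) without AAV206-GFP replicate 4 and -0.14 (edgeR adjusted p = 0.175) with trends on transcript length and GC content removed.

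In complex V, 1 of 17 members fell, where 5.3% of all genes did. A log2 fold change under 0 was found for 16, with a median of -0.13 over the 17. The 5 members of the catalytic F1 head and its central stalk had a median of -0.13, the 4 of the peripheral stalk -0.14, the 3 genes for the rotating c ring -0.087 and the 4 other membrane subunits -0.33. Atp5s, which matches by name but is no subunit of the enzyme, had 0.043. Atp5e, the epsilon subunit of the central stalk, lies at chr2:174461072-174464105 on the minus strand. Its levels were 32.1, 23.4, 40.9, 25.2 and 23.8 CPM in AAV2-GFP retinas and 18.5, 24.8, 22.1, 19.0 and 20.3 CPM in AAV206-GFP retinas. AAV2-GFP replicates 1 and 3 were well above the rest, and AAV206-GFP replicate 2 overlapped the AAV2-GFP libraries. Means were 29.1 ± 7.48 and 20.9 ± 2.57 CPM (SD, n = 5 each), and Atp5e fell by 0.48 on the log2 scale (SE 0.14, edgeR adjusted p = 0.0447). The call was kept without AAV2-GFP replicate 2 or 5 or AAV206-GFP replicate 2. In the other 7 fits with 1 library left out the edgeR adjusted p was from 0.0530, without AAV2-GFP replicate 4, to 0.106, without AAV2-GFP replicate 3, where the log2 fold change was -0.32.

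Atp5b, the catalytic beta subunit of the F1 head, had the highest level per kilobase of transcript of all members, 459 CPM per kilobase. Its levels were 832, 848, 1062, 967 and 883 CPM in AAV2-GFP retinas and 839, 821, 900, 761 and 882 CPM in AAV206-GFP retinas. The ranges overlapped, and the log2 fold change was -0.13 (SE 0.07, edgeR adjusted p = 0.258). Levels per kilobase ran from 1.67 (Ndufa4l2) to 459 over the members, with medians of 41.0 in complex I, 30.8 in complex II, 47.1 in complex III, 61.1 in complex IV and 78.0 CPM per kilobase in complex V.

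**Figure D2:**
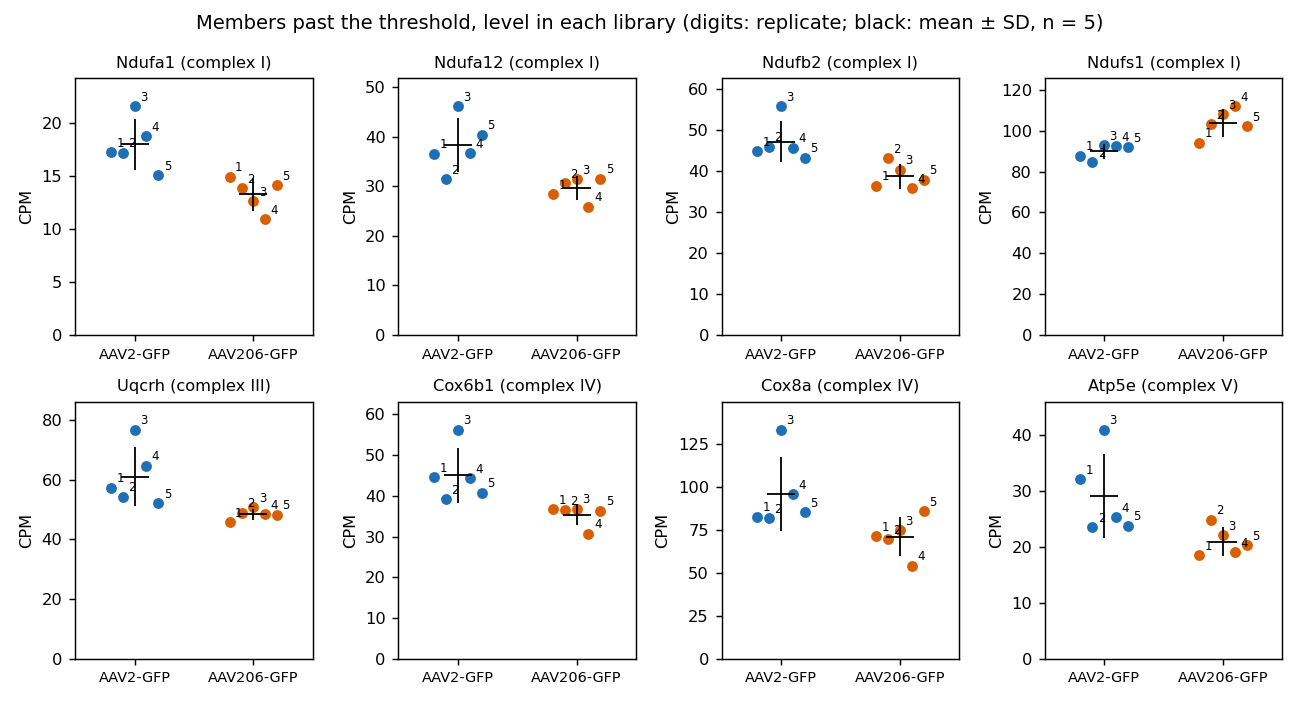
Level (y axis, CPM from 0) of the 8 members with an adjusted p under 0.05 in each of the 10 libraries, with digits for the replicate and black bars for the mean ± SD of 5 libraries. AAV2-GFP replicate 3 is the highest point in every panel of a member that fell, and the groups are separate for Ndufa1, Ndufb2, Ndufs1, Uqcrh and Cox6b1.

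Of the 80 members, 4 had all AAV206-GFP libraries below all AAV2-GFP libraries (Ndufa1, Ndufb2, Uqcrh and Cox6b1), where 4.36% of all genes showed that pattern. The decimals that mark shared reads were present in 16 members. Over the 64 members without them the median log2 fold change was -0.24 and 6 fell, where 5.3% of all genes did. Exons of 28 members overlap another gene, of 25 on the opposite strand.

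Several subunits of the chain have isoforms that are restricted to other tissues or to particular conditions, and 3 of these passed the mean level. Cox4i2, the subunit 4 isoform known from lung and from cells that sense oxygen, had 15.4 ± 2.84 CPM after AAV2-GFP against 12.6 ± 1.07 CPM after AAV206-GFP (SD, n = 5 each), with a log2 fold change of -0.29 (SE 0.13, edgeR adjusted p = 0.168). It stood at 19.3 CPM per kilobase, against 209 for Cox4i1. Cox6b2, the testis isoform of Cox6b1, had 2.7 ± 0.75 and 2.25 ± 0.72 CPM (SD, n = 5 each), with a log2 fold change of -0.26 (SE 0.28, edgeR adjusted p = 0.578), at 6.34 CPM per kilobase against 65.0 for Cox6b1. Ndufa4l2, the paralog of Ndufa4 that hypoxia induces, was the member with the lowest mean level inside the rule, 1.56 CPM. Its levels were 1.18, 1.35, 3.56, 1.53 and 0.940 CPM in AAV2-GFP retinas and 1.09, 3.01, 0.862, 1.53 and 0.594 CPM in AAV206-GFP retinas. In each group 1 library lay far above the other 4, and the log2 fold change of -0.29 (SE 0.45, edgeR adjusted p = 0.71) became 0.17 without AAV2-GFP replicate 3. Just outside the rule was Cox7a1, the heart and muscle isoform of subunit 7a, at a mean of 0.49 CPM. The muscle isoforms Cox6a2 and Cox8b and the testis isoform Cox7b2 had means of 0.0177, 0.0962 and 0.0353 CPM, below the floor. Cox8c and a second identifier for Atp5o, the peripheral stalk subunit, had a count of 0 in every library, which allows up to 3 counts in each.

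The libraries differed in a way that many members shared. AAV2-GFP replicate 3 was the highest of the 10 libraries for 73 of 80 members, with a median difference of 0.43 from the member's own mean on the log2(CPM + 1) scale. AAV206-GFP replicate 4 was the lowest for 39 members, with a median difference of -0.20. In the remaining 8 libraries the median difference was between -0.080 and 0.098. Short genes in general shared this. Over all tested protein coding genes of at most 1000 bases, the median difference was 0.32 in AAV2-GFP replicate 3 and -0.19 in AAV206-GFP replicate 4. The members of that length had 0.50 and -0.25. For protein coding genes of over 5000 bases it was -0.15 and 0.12. By complex, AAV2-GFP replicate 3 stood at 0.44 for complex I, 0.18 for complex II, 0.50 for complex III, 0.45 for complex IV and 0.34 for complex V. AAV206-GFP replicate 4 was at -0.33 for complex IV and between -0.14 and -0.20 for the others. The summed level of all members was 5787 ± 694 CPM after AAV2-GFP against 5298 ± 248 CPM after AAV206-GFP (SD, n = 5 each). Leaving out AAV2-GFP replicate 3, at 6934 CPM, gave an AAV2-GFP mean of 5500 CPM, within 1 SD of the AAV206-GFP mean.

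**Figure D3:**
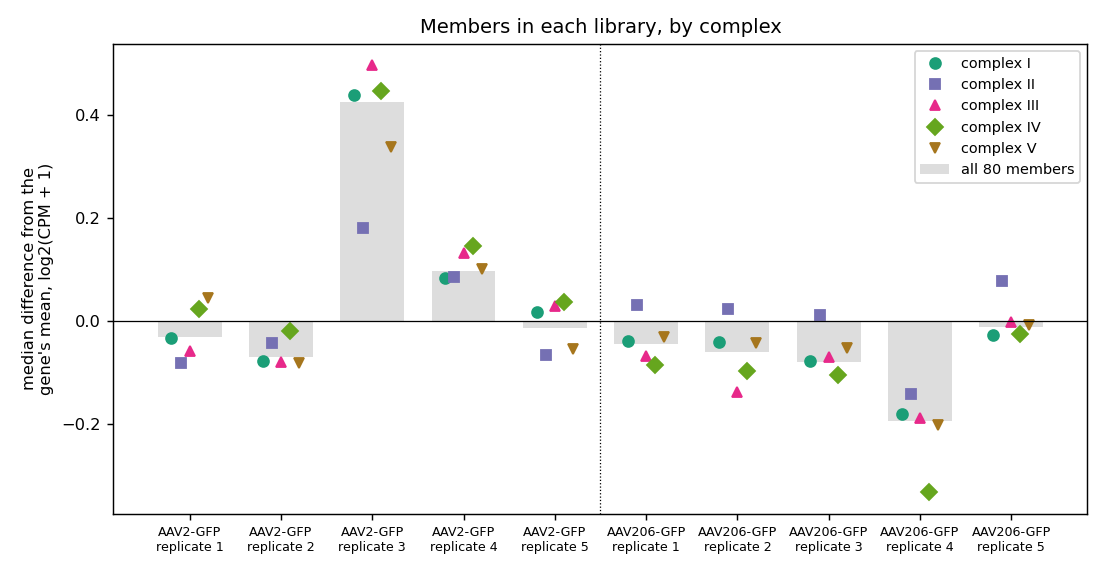
Median difference of the members from their own mean over the 10 libraries (y axis, log2(CPM + 1) scale) in each library (x axis), for all 80 members as grey bars and for each complex as a symbol. AAV2-GFP replicate 3 stands at 0.43 and AAV206-GFP replicate 4 at -0.20, with the other 8 libraries within 0.1 of 0.

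Markers of Müller glia, the support cells of the retina, moved with the same libraries. Their summed level was 2622 to 3486 CPM with AAV2-GFP, highest in replicate 3, and 2362 to 2907 CPM with AAV206-GFP, lowest in replicate 4. All 7 of the 7 markers were tested, none was called with edgeR (3 at an unadjusted p under 0.05) or limma-voom and 2 were with DESeq2, none was at 0 and all 7 had a log2 fold change under 0, with a median of -0.19. Erythrocyte markers were higher with AAV206-GFP, at 101 to 320 CPM against 67.8 to 85.8 CPM, with 4 of 5 tested markers of 7 called. Lens markers summed to 14 to 33.2 CPM in AAV2-GFP retinas and 1.61 to 16.8 CPM in AAV206-GFP retinas, with 2 of 4 tested markers of 7 called lower. Muscle markers, of which 3 of 11 were tested and none called with edgeR (0 at an unadjusted p under 0.05), DESeq2 or limma-voom, summed to 11.3 to 18.7 CPM over all libraries, with Myh4 at 0. Ganglion cell markers summed to 1025 to 1200 CPM with AAV2-GFP, highest in replicate 3, and to 968 to 1102 CPM with AAV206-GFP. Of the 10 tested, 8 had a log2 fold change under 0 and 1 fell, with a median of -0.15. Markers of the retinal pigment epithelium summed to 14.2 to 43.5 CPM with AAV2-GFP and 16.4 to 24.8 CPM with AAV206-GFP, and all 6 tested of 8 were under 0, with a median of -0.49 and 1 that fell. Microglial and immune markers summed to 14 to 224 CPM with AAV2-GFP, highest in replicate 1, and 9.69 to 18.3 CPM with AAV206-GFP. All 6 tested of 9 were under 0, with a median of -1.95 and 1 that fell. Cone markers had a median of 0.10 (2 of 8 rose and 1 fell), bipolar cell markers 0.066 (1 of 7 fell) and pericyte markers -0.076. The part of these cell types in the members' values was not tested.

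The number of calls changed with the library left out. With 1 library left out at a time, edgeR called between 0 and 13 members. No member was called without AAV2-GFP replicate 3, where 7.93% of all genes were, and none without AAV206-GFP replicate 4, where 6.72% of all genes were. At an unadjusted p under 0.05 there were 17 members in the first of these fits, against 24% of all genes, and 25 in the second, against 23.9%. Leaving out AAV2-GFP replicate 4 left Ndufa12 as the only call, with 6.31% of all genes called. The count was 4 without AAV206-GFP replicate 1 (8.81% of all genes called), 3 without AAV206-GFP replicate 2 (6.82%) and 3 without AAV206-GFP replicate 3 (7.64%). It was 7 without AAV2-GFP replicate 5 (8.44%) and 7 without AAV206-GFP replicate 5 (11%). It was higher, all calls being lower values, without AAV2-GFP replicate 1 (13 members, 12.2% of all genes) and without AAV2-GFP replicate 2 (10 members, 11.4%). Without AAV2-GFP replicates 1 and 4 together, the pair with high interferon genes, Ndufa12 and Cox7a2 were called, with 6.18% of all genes, and the median was -0.23. With all 10 libraries under other settings, the count was 10 without a filter on low counts (6.42% of all genes called), 7 with a filter at a mean of 0.5 CPM (9.8%), 13 with DESeq2 (14.5%), 6 with limma-voom (10.6%) and 3 with the replicate number as a block (6.98%). Without AAV2-GFP replicate 3 the median moved towards 0 in complexes I, III, IV and V and crossed it in complex II: it was -0.090 for complex I, 0.021 for complex II, -0.14 for complex III, -0.17 for complex IV and -0.071 for complex V. All 13 members of complex IV kept a log2 fold change under 0 in that fit, and 26 of 37 of complex I did.

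**Figure D4:**
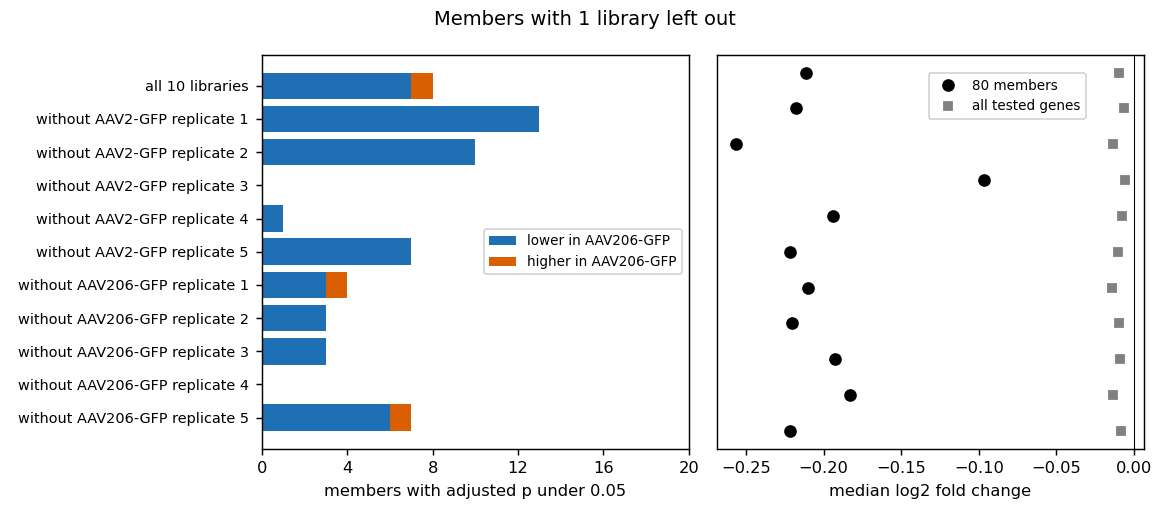
Number of members with an adjusted p under 0.05 (left, bars by direction) and median log2 fold change of the 80 members and of all tested genes (right) with all 10 libraries and with each library left out. The count is 8 with all libraries and 0 without AAV2-GFP replicate 3 or AAV206-GFP replicate 4, while the members' median stays between -0.26 and -0.097.

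The members' fold changes followed transcript length. Lengths were those of the annotated transcript with the longest coding sequence, taking the median where several shared it. Of the members, 54 had a transcript of at most 1000 bases: all 54 had a log2 fold change under 0, with a median of -0.28, and all 7 that fell were among them. The 21 members of over 1000 to 2000 bases had a median of -0.072 and no call with edgeR (2 at an unadjusted p under 0.05), DESeq2 or limma-voom. The 5 members of over 2000 bases (Ndufa10, Ndufs1, Sdha, Sdhc and Atp5a1) had a median of -0.0065, and Ndufs1, which rose, was among these. Across the 80 members, Spearman's correlation of the log2 fold change was 0.66 with transcript length and 0.74 with coding length. It was 0.50 with the mean level and -0.24 with GC content. Over all tested protein coding genes it was 0.046 with the mean level and -0.19 with GC content. The parts of length and level were not told apart. These are correlations across genes measured in the same libraries, given as a description.

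Short protein coding genes in general leaned the same way. The 902 tested ones of at most 1000 bases had a median log2 fold change of -0.19 and 11.4% of them fell, where 13% of the members of that length were called, all lower. The median increased with each length class, to 0.077 for the 2477 genes of over 5000 bases, of which 1.70% fell and 9.77% rose. Over the 13579 tested protein coding genes the Spearman correlation with transcript length was 0.28. The trend differed between libraries. Spearman's correlation of a gene's deviation from its mean with its length, over those genes, was -0.49 in AAV2-GFP replicate 3, -0.27 in AAV2-GFP replicate 4 and 0.35 in AAV206-GFP replicate 4, and between -0.005 and 0.18 in the other 7 libraries. When a smooth trend on transcript length was removed from each library before the edgeR test, 7 of 80 members were called, 6 lower and 1 higher, against 11.6% of all genes (5.98% lower and 5.67% higher), and the members' median was -0.13. The calls were those of the fit without the trend other than Ndufb2 (edgeR adjusted p = 0.0744). With trends on length and GC content removed together, 6 members were called, 5 lower and 1 higher, against 12.5% of all genes (6.5% lower and 6.02% higher), with a median of -0.12. With the length of the longest form in place of the median one, only Cox6b1, Ndufb2 and Ndufs1 were called, against 11.5% of all genes (5.96% lower and 5.51% higher), and the median was -0.095. The longest form of Ndufb2 has 4371 bases against 455 for the median one, so this fit took it as a long gene. Its log2 fold change there was -0.32 (edgeR adjusted p = 0.0272). In that fit the log2 fold change was -0.29 for Ndufa1 (edgeR adjusted p = 0.0793), -0.23 for Ndufa12 (0.0574), -0.28 for Cox8a (0.0643) and -0.31 for Atp5e (0.0775), and -0.21 for Cox6b1, which kept its call (0.0432). With length and GC trends removed, Ndufb2 had -0.20 (edgeR adjusted p = 0.0904), Cox8a -0.27 (0.0615) and Atp5e -0.37 (0.0559). These trend fits were chosen after seeing the data.

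**Figure D5:**
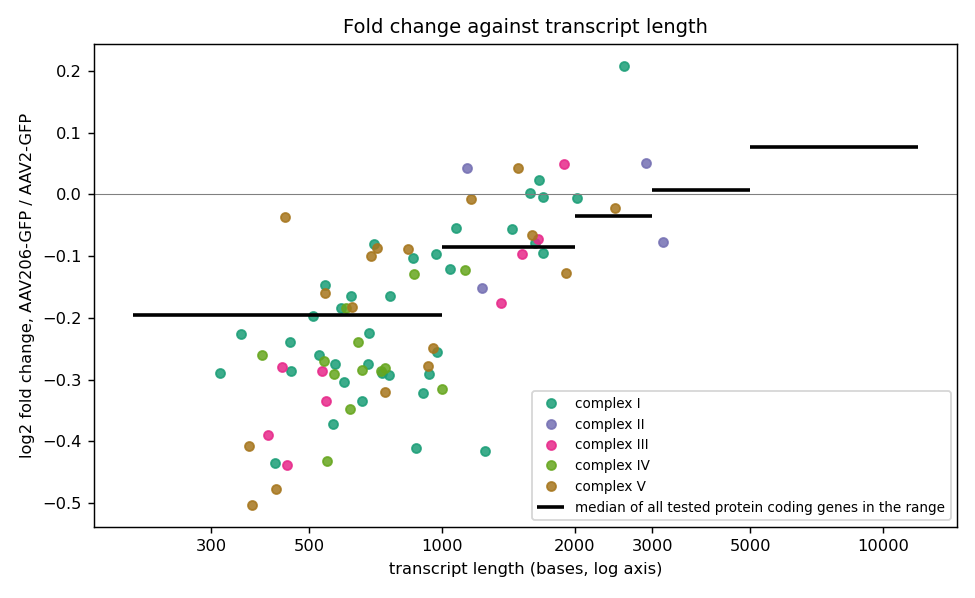
Log2 fold change of each member (y axis) against transcript length in bases (x axis, log scale), coloured by complex, with black lines for the median of all tested protein coding genes in each length class. Members of at most 1000 bases all lie below 0, with a median of -0.28 where the class as a whole has -0.19, and Ndufs1 stands alone above 0.2.

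Genes that work with the members were taken from lists, for which the background is again 11.2% of all genes. Factors that assemble complex I were tested for 16 genes, of which 1 rose and 2 fell, with a median log2 fold change of -0.093. Nubpl, which delivers iron-sulfur clusters to complex I, rose from 4.58 ± 0.19 to 7.60 ± 0.96 CPM (SD, n = 5 each), by 0.73 on the log2 scale (SE 0.15, edgeR adjusted p = 0.00551). Ndufaf2, a late assembly factor and paralog of Ndufa12, fell by 0.60 (SE 0.14, edgeR adjusted p = 0.0126), with decimals in all 10 libraries. Ndufaf4 fell by 0.28 (SE 0.08, edgeR adjusted p = 0.0402). Transcript lengths were 2987 bases for Nubpl, 678 for Ndufaf2 and 3632 for Ndufaf4. The part of length in the values of the listed genes was not tested. The groups did not overlap for Nubpl (4.36 to 4.87 against 6.55 to 8.79 CPM) or for Ndufaf4. Nubpl and Ndufaf2 passed the threshold in 10 of 10 fits with 1 library left out and Ndufaf4 in 3, with an edgeR adjusted p of up to 0.0963 without AAV206-GFP replicate 3.

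For complexes II and III, 1 of 10 tested assembly genes rose and none fell, with a median of -0.014. It was Ttc19, which acts on complex III, which went from 66.9 ± 4.55 to 78.1 ± 5.23 CPM (SD, n = 5 each; log2 fold change 0.22, SE 0.07, edgeR adjusted p = 0.0414). For complex IV, 2 of 22 tested assembly genes fell, with a median of -0.13. Cox14, needed for translation and assembly of the mitochondrially encoded subunit Cox1, fell from 43.3 ± 6.44 to 30.7 ± 1.35 CPM (SD, n = 5 each), by 0.50 on the log2 scale (SE 0.09, edgeR adjusted p = 0.00312). Coa3, its partner, fell by 0.27 (SE 0.08, edgeR adjusted p = 0.0387). For complex V, 1 of 4 tested assembly genes rose: Atpaf1, a chaperone of the F1 head, went from 27.1 ± 0.67 to 34.5 ± 2.11 CPM (SD, n = 5 each; log2 fold change 0.35, SE 0.07, edgeR adjusted p = 0.00526), with decimals in 5 libraries. The groups of these 4 genes did not overlap: Cox14, for instance, was at 36.4 to 50.7 CPM in AAV2-GFP retinas and at 29.1 to 32.8 CPM in AAV206-GFP retinas. Cox14 and Atpaf1 kept their calls in 10 of 10 fits with 1 library left out, AAV2-GFP replicate 3 and AAV206-GFP replicate 4 included. Ttc19 and Coa3 kept theirs in 4 fits each, with an edgeR adjusted p of up to 0.106 without AAV206-GFP replicate 2 for Ttc19 and up to 0.0988 without AAV2-GFP replicate 4 for Coa3.

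Of 12 genes for mobile electron carriers, Cycs, which encodes cytochrome c, fell by 0.29 (SE 0.09, edgeR adjusted p = 0.0474), with decimals in all 10 libraries, and the genes of ubiquinone synthesis were not called. Of 12 regulators of mitochondrial gene expression, Ppargc1b, a coactivator, rose by 0.28 (SE 0.08, edgeR adjusted p = 0.0288), and the list's median was 0.097. None of the 14 enzymes of the TCA cycle was called with edgeR (3 at an unadjusted p under 0.05) or limma-voom and 1 was with DESeq2, with a median of -0.042. The 13 mitochondrially encoded subunits leaned the other way from the nuclear members: 12 had a log2 fold change above 0, with a median of 0.11. Of these mt-Atp8, a membrane subunit of complex V, rose from 10.6 ± 2.01 to 14.9 ± 1.70 CPM (SD, n = 5 each; log2 fold change 0.50, SE 0.14, edgeR adjusted p = 0.0329). Their summed level was 35085 to 36543 CPM in AAV2-GFP retinas and 35613 to 40784 CPM in AAV206-GFP retinas, with AAV206-GFP replicate 4, lowest for many nuclear members, highest here. The difference between the nuclear and the mitochondrial lists was not tested. With 1 library left out, Cycs kept its call in 1 of 10 fits, mt-Atp8 in 4 and Ppargc1b in 5. Their highest edgeR adjusted p were 0.116 for Cycs and 0.0743 for Ppargc1b, both without AAV206-GFP replicate 4, and 0.0840 for mt-Atp8 without AAV2-GFP replicate 4.

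The stretch of 120 bases before the start site is shown for the members that fell and for which the promoter table holds a stretch free of exons (GRCm38.p6), so that the elements they share can be compared. The start is that of RefSeq or of GENCODE, whichever lies further upstream. Capitals mark a CCAAT box (CCAAT, or ATTGG on the other strand) and an ETS site (CCGGAAG, or CTTCCGG on the other strand), the element bound by factors such as Gabpa.
Ndufb2 (chr6:39592445-39592564, plus strand): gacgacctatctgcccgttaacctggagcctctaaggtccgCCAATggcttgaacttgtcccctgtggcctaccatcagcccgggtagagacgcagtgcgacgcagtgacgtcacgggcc
Uqcrh (chr4:116075072-116075191, minus strand): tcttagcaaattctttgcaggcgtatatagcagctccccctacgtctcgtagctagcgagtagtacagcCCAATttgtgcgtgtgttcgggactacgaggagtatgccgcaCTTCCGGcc
Cox6b1 (chr7:30626152-30626271, minus strand): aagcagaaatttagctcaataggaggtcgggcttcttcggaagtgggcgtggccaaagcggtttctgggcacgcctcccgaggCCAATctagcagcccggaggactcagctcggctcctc
Cox8a (chr19:7217617-7217736, minus strand): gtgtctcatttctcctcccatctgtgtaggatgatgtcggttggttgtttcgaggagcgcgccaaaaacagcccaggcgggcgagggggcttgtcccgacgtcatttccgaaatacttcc
Atp5e (chr2:174464106-174464225, minus strand): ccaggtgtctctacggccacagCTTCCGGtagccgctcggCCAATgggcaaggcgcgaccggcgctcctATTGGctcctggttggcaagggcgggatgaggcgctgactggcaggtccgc

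A CCAAT box lay in the stretches of Ndufb2, Uqcrh, Cox6b1 and Atp5e, and an ETS site in those of Uqcrh and Atp5e, close to the start in Uqcrh and at the far end in Atp5e. None of the letters searched was in the stretch of Cox8a. In the table, 65 of 80 members were matched, Ndufs1 not among them. Motifs were also searched over the 250 bases before the RefSeq start, on both strands. A gene counted if any of its promoters held the letters. The NRF1 site GCGCATGC was found for 12.3% of the matched members and for 2.56% of all 27025 genes with a promoter of the same length, whether or not they were tested here. The ETS site was in 18.5% against 7.83%, the CCAAT box in 43.1% against 37.5%, the YY1 site AAGATGGC in 1.54% against 1.83% and TATAAA in 7.69% against 14.3%. The ETS and YY1 letters can overlap at AAG. A match of letters is a description and not a measured binding site, and no binding was measured in these retinas.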

How the data were processed

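RNA from 10 retinas, 5 a group, was sequenced as read pairs from NEBNext Ultra libraries, per the labels' protocols. The deposited values are estimated counts per gene (expected counts), which the authors made with STAR 2.7.10b and RSEM 1.3.1 on mm10, per the submitters' processing notes; the annotation release and the strand setting are not given in the sources used here. Libraries were grouped by their titles. Of the values, 5.95% carried decimals, and all were rounded to whole numbers. GENCODE M21 named 91.4% of the identifiers. Genes were kept by filterByExpr with a minimum count of 10, scaled with TMM factors and tested with edgeR 4.0.16 (quasi-likelihood, R 4.3.3) over all 10 libraries, with Benjamini-Hochberg adjustment over 15539 genes and a threshold of 0.05. CPM are counts scaled to the TMM-adjusted library size. Standard errors are the log2 fold change over the square root of F. The procedure was tested on simulated data.

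Named members were those past the threshold, in each complex the one with the smallest p and the one with the highest mean level, and the isoforms restricted to other tissues; from the other lists, only genes past the threshold. A member that the rule picks is not reported here; counts and medians still include it. The other members are given in counts and ranges. Cox7a2 and the genes just outside the rule were named after their values were seen. The members and lists were chosen with earlier results of these data known, and the groups of core, accessory and small subunits after the data were examined. Alternatives covered scaling, filters, DESeq2 1.42.0, limma-voom (limma 3.58.1), the replicate number as a block, left-out libraries and trends on length and GC content (natural splines, entered as offsets). Promoters are RefSeq's.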

Additional observations from a re-analysis of the deposited data

Results flagged for a closer look

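In a set of 5 libraries, a library was singled out where its gap to the nearest other library was over 0.71 of the group's range, a rule that chance meets in about 1 in 20 groups. Of 46 results by group, 7 met it, where 2.3 would by chance if the results were independent. They were not, since they share the same libraries and include genes named for their calls, so the counts allow no conclusion on chance. AAV2-GFP replicate 3 was above its group for Ndufb2 (55.8 CPM, others 43.2 to 45.9), Cox8a (134 CPM, others 82.1 to 95.9) and Ndufa4l2 (3.56 CPM, others 0.940 to 1.53). AAV206-GFP replicate 4 was below its group for Cox6b1 (30.7 CPM, others 36.4 to 36.8), Cox4i1 (114 CPM, others 141 to 151) and the summed level of complex I (1368 CPM, others 1477 to 1522). AAV206-GFP replicate 2 was below its group for Uqcrc1 (150.8 CPM, others 155.3 to 156.9).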

How the results depend on the processing

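The members' median log2 fold change stayed under 0 in all alternatives run. The scalings (library totals, upper quartile, DESeq2 size factors in edgeR, mitochondrially encoded genes left out) gave 7 or 8 calls among the 80 members and medians of -0.20 to -0.22. In these fits 11.1% to 11.4% of all genes were called. Without a filter, 10 members were called, 0 of them higher. DESeq2 called 13 members, 12 of them lower, among 2254 genes (14.5%), and limma-voom 6. The replicate numbers did not pair the libraries (correlations of deviations from -0.052 to 0.040), and with the replicate block 3 members were called, 3 lower and 0 higher, among 1085 genes in all. With AAV2-GFP replicates 1 and 4 left out together, 2 were called, 2 lower and 0 higher, among 985 genes. With the longest form's length trend removed, chosen after seeing the data, 3 were called, 2 of them lower. With 1 library left out, edgeR called 991 to 1912 genes in all, 0 to 13 members, 0 to 13 of them lower and 0 to 1 higher, with medians from -0.26 to -0.097. Among the members named, the sign turned for Ndufa4l2 without AAV2-GFP replicate 3 (0.17; -0.76 without AAV206-GFP replicate 2) and for Uqcrc1 with length and GC trends removed (0.025), both uncalled. The cause of these changes was not tested. With 5 mice a group, SEs of the members' log2 fold changes had a median of 0.10 and reached 0.45 for Ndufa4l2, the lowest in level.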
